A study of Mus musculus with 6 samples.

Results

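The 10 genes described here are the phospholipase A2 genes Pla2g2a, Pla2g5, Pla2g2f, Pla2g10, Pla2g12a and Pla2g12b (secreted), Pla2g4a and Pla2g4c (cytosolic), Pla2g6 (calcium-independent) and Pla2g7 (lipoprotein-associated). They were taken by name from 19874 genes with at least 1 read, and all 10 were among the 15063 genes that passed the filter on low counts. They were picked with the genotype difference of these libraries in view, so their differences and calls are given as a description, and no p-value is printed for any single member. Levels are given as CPM, counts scaled to a common library size with TMM factors. Where genes are compared with one another, FPKM, which also divides by transcript length, is used.

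Phospholipases A2 cut the fatty acid from the middle position of membrane phospholipids and release a lysophospholipid, and the freed arachidonic acid is the substrate for prostaglandins and leukotrienes. The secreted enzymes are small, rich in disulfide bonds and dependent on calcium, and carry a histidine next to an aspartate in the active site. In the gut, group IIA enzyme is best known as a bactericidal protein that attacks the membranes of Gram-positive bacteria and that Paneth cells and inflamed epithelium secrete. The cytosolic, calcium-independent and lipoprotein-associated enzymes are unrelated in sequence to the secreted ones and act on membranes inside the cell or on oxidised phospholipids and platelet-activating factor (PAF) in plasma.

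The groups were STAT6-/- mice and wild-type (WT) mice, both labelled BALB/c and aged 6 to 8 weeks, and both given 3% dextran sulfate sodium (DSS), which injures the colonic epithelium, for 3 days. STAT6 is the transcription factor through which interleukin-4 and interleukin-13 act. Each genotype had 3 colon libraries, with 19224779 to 19555450 expected counts in STAT6-/- and 17122315 to 17433876 in WT. Colon without DSS was not analysed here. Whether the replicates came from different mice is not in the labels, so their spread may be technical, and p-values measure that spread only. The protocol mentions the proximal intestine and a scraping of its luminal side before the tissue was cut into pieces. Summed levels of 11 colon epithelial markers were 18900 to 26200 CPM in STAT6-/- and 27800 to 36600 CPM in WT. Most of that sum was Lypd8 (11900 to 18200 CPM in STAT6-/- and 19800 to 25800 CPM in WT), which was not called. Of the 11, 2 rose (Krt20 and Vil1) and 1 fell (Car1), and Epcam averaged 1950 ± 336 CPM in STAT6-/- and 1850 ± 378 CPM in WT. Summed levels of 10 small intestinal markers were 40.9 to 109 CPM in STAT6-/- and 220 to 306 CPM in WT, with 1 that fell. That one, the bile acid carrier gene Slc10a2, made up most of the WT sum (30.6 ± 20.2 CPM in STAT6-/- and 238 ± 44.8 CPM in WT), whereas Fabp6 averaged 26.5 ± 35.3 CPM in STAT6-/- and 4.76 ± 0.725 CPM in WT and was not called. Lypd8, Krt20, Vil1, Car1, Epcam, Slc10a2 and Fabp6 were named after their values were seen.

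Stat6 stood at 47.2 ± 7.73 CPM in STAT6-/- and 94.8 ± 8.11 CPM in WT (SD, n = 3 each), a log2 fold change of -1.01 ± 0.16 (SE; adjusted p = 0.0134 by the quasi-likelihood test of edgeR with Benjamini-Hochberg adjustment). Xist, transcribed from the inactive X chromosome of females, averaged 0.683 ± 0.376 CPM in STAT6-/- and 469 ± 103 CPM in WT, and the Y-linked Ddx3y averaged 55.1 ± 4.33 CPM in STAT6-/- and 0.08 ± 0.0382 CPM in WT. Sex and genotype therefore part the libraries in the same way and cannot be told apart in any value below. On the first principal component, which held 61.4% of the variance, STAT6-/- replicate 2 lay at -21.6 and the other STAT6-/- libraries at -85.6 and -68.8, while WT lay between 47.8 and 67.3. Of all tested genes, 1719 were called higher in STAT6-/- and 1732 lower at an adjusted p below 0.05. Far fewer genes were called when single WT libraries were left out, with 21 called higher and 10 lower without WT replicate 2, and 12 higher and 6 lower without WT replicate 3.

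The active site that the secreted members share is shown for the coding strand of their GENCODE M21 transcripts (mm10, 24 bases each), because it is the stretch by which these genes belong to one family. The capitals mark the codons for the catalytic histidine and the aspartate that follows it.
Pla2g2a: tgctgtgttactCATGACtgttgc
Pla2g5: tgctgtcagatgCACGACcgttgt
Pla2g2f: tgctgccatgccCACGACtgttgc
Pla2g10: tgctgctaccacCACGACtgctgc
Pla2g12a: tgctgcaaccagCACGACagatgc
Pla2g12b: tgttgcaaccagCTGGACgtctgc
The Pla2g2a stretch lies at chr4:138833270-138833293 on the plus strand and the Pla2g5 stretch at chr4:138801434-138801457 on the minus strand, each within a single exon. That of Pla2g2a was read from the model Pla2g2a-201, whose reading frame is described further below. The Pla2g2f stretch shares 18 of 24 bases with Pla2g2a, that of Pla2g5 16, Pla2g10 15, Pla2g12a 14 and Pla2g12b 11. Pla2g12b has a leucine codon, CTG, in place of the histidine codon, and its product is known as a family member without catalytic activity. The other 4 members belong to other enzyme families with a different active site.

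Pla2g2a dominated the family in STAT6-/- colon and was a minor member in WT colon. It was measured at 1350, 953 and 244 CPM in the STAT6-/- libraries, against 4.08, 4.16 and 1.76 CPM in the WT libraries. The groups were far apart, although the highest and the lowest STAT6-/- library also differed widely. The means were 850 ± 562 CPM in STAT6-/- and 3.33 ± 1.36 CPM in WT (SD, n = 3 each). The log2 fold change was 7.99 ± 0.82 (SE), a 255-fold higher level in STAT6-/-. The counts behind it were 28996, 18248 and 4604 in STAT6-/- and 69, 67 and 31 in WT. Its FPKM ranked 15th, 43rd and 251st among all genes in the STAT6-/- libraries, and its ranks in WT were 8291, 8154 and 10848. In bulk tissue, more cells that make an mRNA and more mRNA per cell cannot be told apart.

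Pla2g5, a heparin-binding secreted enzyme studied chiefly in macrophages and the heart, was the second gene with a large difference. It stood at 68.5, 35.9 and 15.1 CPM in STAT6-/- and 2.84, 1.92 and 1.53 CPM in WT. Like Pla2g2a it was highest in STAT6-/- replicate 1 and lowest of that group in replicate 3, and all 3 libraries lay above WT. The log2 fold change was 4.24 ± 0.60, or 18.9-fold. Pla2g5 counts amounted to 5.06%, 3.77% and 6.19% of the Pla2g2a counts in STAT6-/- and to 69.6%, 46.3% and 87.1% in WT. These shares are not corrected for transcript length. Per length, Pla2g5 had 1.41, 0.89 and 0.79 FPKM in WT, beside 5.21, 4.96 and 2.34 FPKM for Pla2g2a. In STAT6-/- it had 37.83, 18.03 and 7.37 FPKM, beside 1921.83, 1228.91 and 306.02 FPKM. On both measures the balance between these neighbours differed between the genotypes as well as their levels.

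No other secreted member was called. Pla2g10, a potent releaser of arachidonic acid that is abundant in the colonic epithelium, had 77.7, 123 and 113 CPM in STAT6-/- and 142, 165 and 124 CPM in WT. All STAT6-/- values lay below WT, the nearest pair by a narrow margin, and the log2 fold change was -0.46 ± 0.21, which was not called. Pla2g10os, an antisense lncRNA whose RefSeq span overlaps that of Pla2g10 by 1259 bases, had 48, 141 and 75 counts in STAT6-/- and 143, 148 and 175 counts in WT. Whether reads were counted by strand is not given in the sources used here, so reads from the overlap cannot be told apart.

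Pla2g2f, a secreted enzyme of skin and gut epithelia, had 25.2, 62.4 and 23.2 CPM in STAT6-/- and 46.8, 57.2 and 48.8 CPM in WT. STAT6-/- replicate 2 was the highest of all 6 libraries and the other STAT6-/- libraries were the lowest, so the groups overlapped (log2 fold change -0.47 ± 0.38). Without STAT6-/- replicate 2 the log2 fold change was -1.05 and the gene was called. Summed levels of 8 goblet cell markers set the same library apart, with 10500, 24800 and 8450 CPM in STAT6-/- and 23300, 22900 and 21800 CPM in WT. Of the 8 markers 1 fell, Clca1, with 1860, 3470 and 468 CPM in STAT6-/- and 11600, 10200 and 10300 CPM in WT. The markers did not move together, since all STAT6-/- libraries lay above WT for Muc2 and Spdef and below it for Tff3, none of them called. Clca1, Muc2, Spdef and Tff3 were named after their values were seen. The part of goblet cells in the Pla2g2f values was not tested.

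Pla2g12a, a secreted enzyme with a distinct fold, had 5.65, 6.58 and 5.40 CPM in STAT6-/- and 9.70, 7.07 and 5.73 CPM in WT. Pla2g12b, which takes part in lipoprotein secretion in liver and gut, had 4.85, 3.66 and 2.01 CPM in STAT6-/- and 3.25, 2.23 and 3.23 CPM in WT. For both genes the groups overlapped, and the log2 fold change was -0.35 ± 0.28 for Pla2g12a and 0.27 ± 0.40 for Pla2g12b.

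Among the intracellular enzymes, Pla2g4a, the calcium-dependent cytosolic enzyme that supplies arachidonic acid on stimulation, had 47.0, 33.2 and 38.0 CPM in STAT6-/- and 51.2, 66.8 and 58.5 CPM in WT. The groups did not overlap, STAT6-/- being lower, and the log2 fold change of -0.58 ± 0.18 was not called. It was called with DESeq2 (-0.56) and without STAT6-/- replicate 1 (-0.69).

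Pla2g4c, a membrane-bound cytosolic enzyme that does not need calcium, had 9.47, 1.67 and 2.59 CPM in STAT6-/- and 0.177, 0.248 and 0.397 CPM in WT. It was the scarcest member of the 10 per length in both groups, and the WT values rest on 3, 4 and 7 counts. The groups did not overlap, and the log2 fold change was 4.03 ± 0.81. On log2(FPKM + 1) it was 1.02, where the added 1 exceeds its mean WT level of 0.08 FPKM. The STAT6-/- replicates 1 and 3 gave all their reads to 1 transcript (NM_001168504, 203 and 49 counts), which was not listed in any other library. STAT6-/- replicate 2 and the WT libraries gave theirs to another (NM_001004762, 32 counts in STAT6-/- replicate 2), so the isoform counted differed between libraries.

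Pla2g6, a calcium-independent enzyme of membrane upkeep, had 12.7, 11.3 and 8.04 CPM in STAT6-/- and 6.86, 7.13 and 9.59 CPM in WT, with overlap (log2 fold change 0.45 ± 0.27). Pla2g7, the lipoprotein-associated PAF acetylhydrolase made mainly by macrophages, had 37.8, 7.52 and 42.7 CPM in STAT6-/- and 13.0, 12.6 and 17.2 CPM in WT. STAT6-/- replicate 2 was the lowest of the 6 libraries and the other STAT6-/- libraries the highest, and the log2 fold change was 1.04 ± 0.57. Without STAT6-/- replicate 2 it was 1.52 and the gene was called.

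Summed levels of 12 macrophage and monocyte markers were 1700, 620 and 1500 CPM in STAT6-/- and 503, 734 and 764 CPM in WT, with the dip again in STAT6-/- replicate 2. Of the 12 markers, 1 rose (8.33% called, beside 22.9% of all tested genes), and none was at 0. The marker that rose, Cd14, did not fall to WT levels in replicate 2. It had 287, 236 and 271 CPM in STAT6-/- and 73.0, 67.4 and 42.4 CPM in WT, and was named after its values were seen. The part of macrophage numbers in the Pla2g7 values was not tested.

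**Figure D1:**
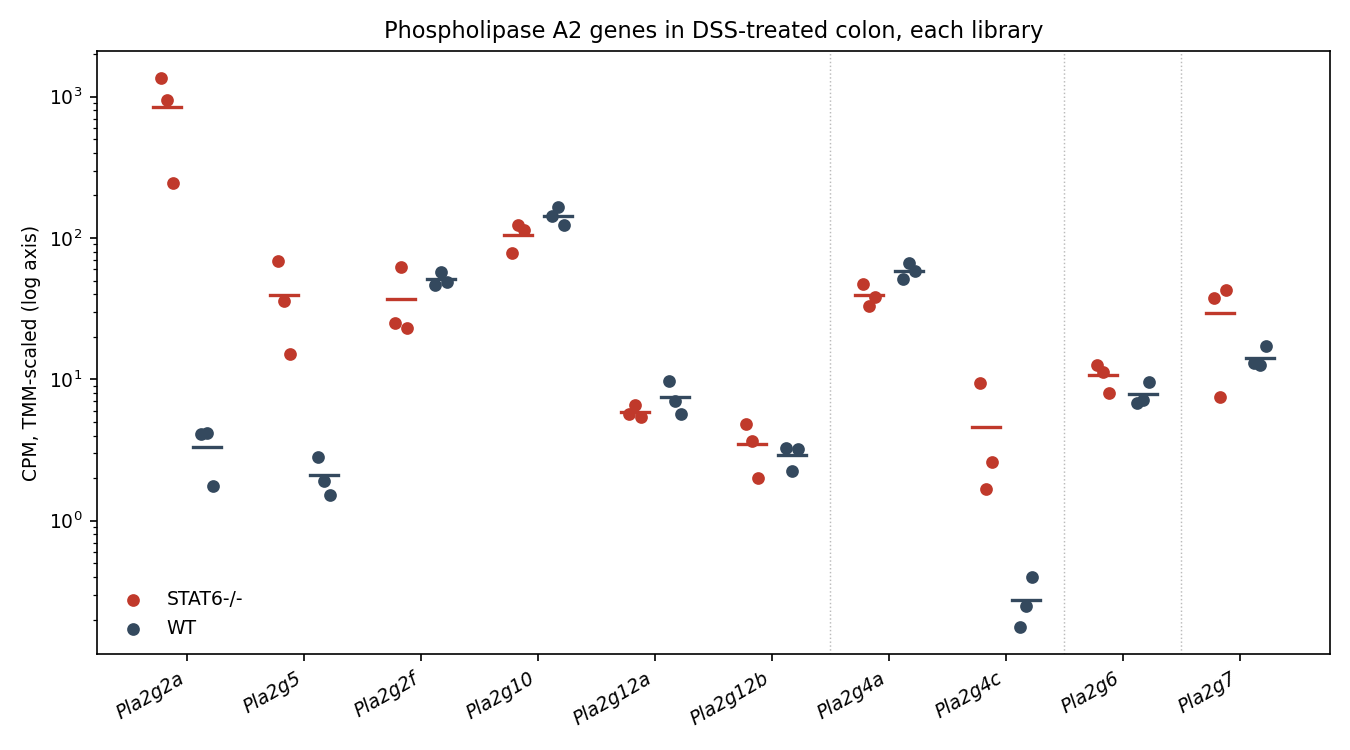
Level of each phospholipase A2 gene in every library (CPM, TMM-scaled, log axis), with STAT6-/- points left of WT points and lines at the group means. Dotted lines part the secreted, cytosolic, calcium-independent and lipoprotein-associated enzymes. Pla2g2a, Pla2g5 and Pla2g4c are the members whose STAT6-/- libraries all lie above WT, and Pla2g10 and Pla2g4a those whose STAT6-/- libraries all lie below.

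In all, 3 of the 10 members (Pla2g2a, Pla2g5 and Pla2g4c) were called, beside 22.9% of all tested genes, and all 3 were higher in STAT6-/-, beside 11.4%. None was called lower by edgeR, beside 11.5% of all genes. At an unadjusted p under 0.05, 1 member was lower, and DESeq2 also called 1 lower (Pla2g4a). The groups did not overlap for 5 members, beside 46.5% of all tested genes; 3 lay above WT, beside 22.0%, and 2 below, beside 24.5%. The median log2 fold change was 0.36 over the members and 0.01 over all tested genes. Since the members were chosen on this contrast, nothing is read from these shares. Without WT replicate 2 no member was called higher, nor without WT replicate 3, although 3 stayed at an unadjusted p under 0.05 in each case. The log2 fold change of Pla2g2a was then 8.18 without WT replicate 2 and 7.68 without WT replicate 3.

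Per length, the order of the family differed between the genotypes, most at the top. In STAT6-/- colon Pla2g2a led with 1150 ± 811 FPKM (SD, n = 3), followed by Pla2g10 with 116 ± 20.6 FPKM. Pla2g5 (21.1 FPKM), Pla2g7 (15.7 FPKM), Pla2g2f (15.3 FPKM) and Pla2g4a (14.0 FPKM) came next with overlapping ranges. Pla2g12a (3.83 FPKM), Pla2g12b (3.42 FPKM), Pla2g6 (3.09 FPKM) and Pla2g4c (1.42 FPKM) were lowest, and each of these overlapped its neighbour in the order.

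In WT colon Pla2g10 led with 153 ± 13.6 FPKM. Pla2g2f (20.3 FPKM) and Pla2g4a (19.9 FPKM) came next and could not be ordered between themselves. They stood apart from Pla2g7 (7.29 FPKM), Pla2g12a (4.68 FPKM), Pla2g2a (4.17 ± 1.59 FPKM), Pla2g12b (2.69 FPKM) and Pla2g6 (2.15 FPKM), whose neighbouring ranges overlapped. Pla2g5 (1.03 FPKM) and Pla2g4c (0.08 FPKM) stood apart at the bottom.

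Summed over the 10 genes, Pla2g2a made up 90.7%, 85.8% and 63.1% of the FPKM in STAT6-/- and 2.44%, 2.16% and 1.15% in WT. Pla2g10 made up 4.41%, 9.36% and 24.7% in STAT6-/- and 71.6%, 72.7% and 68.8% in WT. The make-up was thus nearly the same in the 3 WT libraries and varied among the STAT6-/- libraries, with STAT6-/- replicate 3 the least filled by Pla2g2a.

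**Figure D2:**
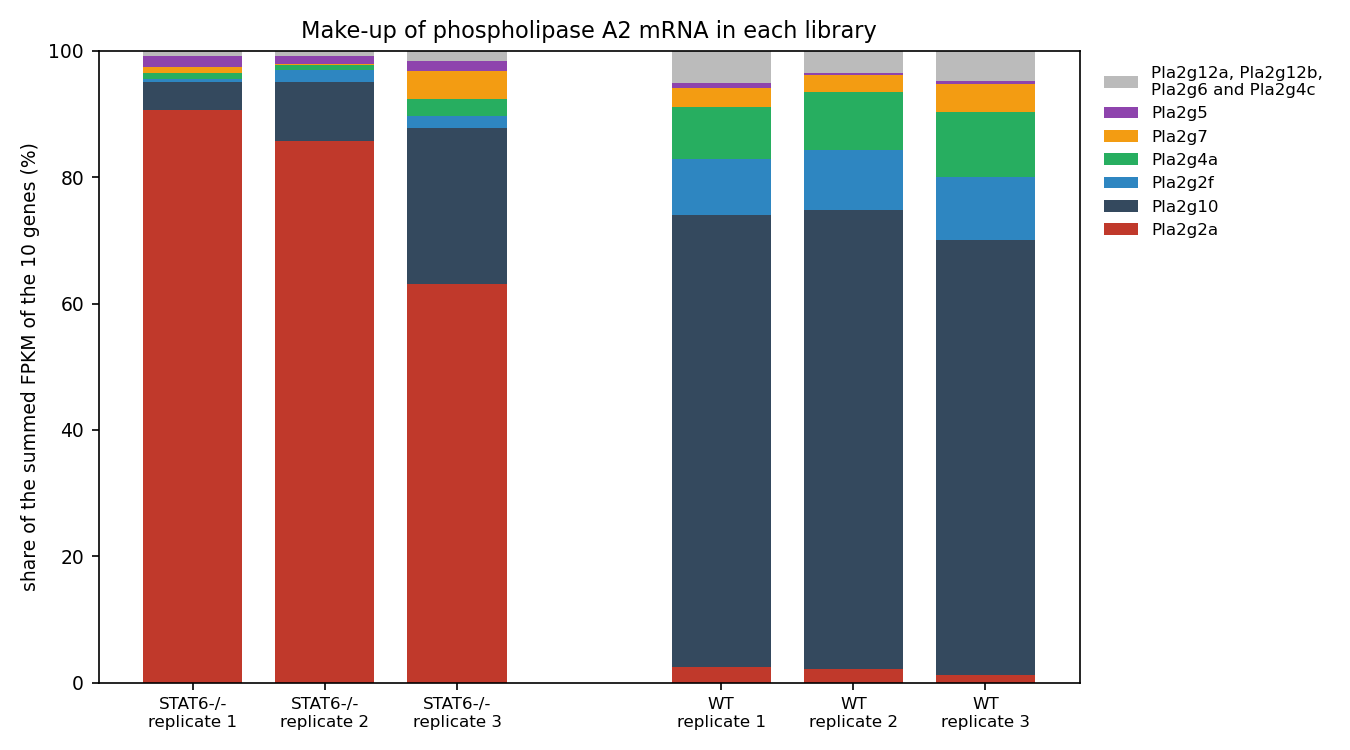
Share of each gene in the summed FPKM of the 10 phospholipase A2 genes (percent), 1 bar per library with STAT6-/- on the left and WT on the right. Pla2g2a fills 63.1% to 90.7% of the STAT6-/- bars, and Pla2g10 fills 68.8% to 72.7% of the WT bars.

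Pla2g2a lies on chromosome 4 (chr4:138831857-138835189, plus strand, mm10) and carries a natural frameshift in several laboratory strains, among them C57BL/6, the strain of the mouse reference genome. RefSeq therefore annotates it there as a transcribed pseudogene, while BALB/c mice are known to carry an intact gene. On that reference genome, the GENCODE M21 models Pla2g2a-203 and Pla2g2a-201 differ by 4 bases at chr4:138833013-138833016. These bases are printed in capitals in their context (chr4:138832993-138833036, plus strand). They part the models and are not the difference between strains, and the BALB/c sequence is not shown.
Pla2g2a-203: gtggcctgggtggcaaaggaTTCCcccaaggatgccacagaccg
Pla2g2a-201: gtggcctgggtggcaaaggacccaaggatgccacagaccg
Both were read from the annotated start codon of Pla2g2a-201. Pla2g2a-203, which keeps the 4 bases, reaches a stop after 68 codons, and Pla2g2a-201, which leaves them out, runs on for 145 codons.

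Counts were assigned to 2 RefSeq transcripts of Pla2g2a. NM_001082531 took 27568, 17429 and 4336 counts in STAT6-/- and 69, 67 and 31 in WT. NR_002926 took 1428, 819 and 268 counts in STAT6-/- and was not listed in any WT library, where the files begin at an FPKM of 0.01. Its share of the Pla2g2a counts in STAT6-/- was 4.92% (95% exact binomial interval 4.68% to 5.18%), 4.49% (4.19% to 4.80%) and 5.82% (5.16% to 6.54%), intervals that cover counting error only. With the 69, 67 and 31 counts of the WT libraries, a share of 0 has an upper bound of 5.21%, 5.36% and 11.2%. These bounds come from the same interval, library by library, and the WT libraries were not pooled. The STAT6-/- shares of 4.92% and 4.49% lie below all of these bounds. The share of 5.82%, in STAT6-/- replicate 3, lies above 5.21% and 5.36% and below 11.2%. Near-identical transcripts share most reads, which the estimation divides between them. RefSeq's prefixes mark NM_001082531 as coding, whereas the GENCODE tables pair it with Pla2g2a-203, so which reading frame each name stands for is not settled. The gene total does not depend on that division, and whether the genotypes carry the same Pla2g2a allele was not tested.

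Pla2g2a sits in a cluster of secreted phospholipase genes. The counted Pla2g5 transcript (GENCODE Pla2g5-203, chr4:138799244-138819255, minus strand) lies 12.6 kb from Pla2g2a and shares 0 exonic bases with it, although the full RefSeq span of Pla2g5 encloses Pla2g2a. The other tested cluster members were not called. Pla2g2d, an enzyme of lymphoid dendritic cells, had 26.3, 8.30 and 6.56 CPM in STAT6-/- and 7.28, 7.82 and 6.75 CPM in WT (log2 fold change 0.92 ± 0.52). Only STAT6-/- replicate 1 stood out, and that library also had the highest sum of 6 B cell markers (312 CPM, against 25.1 and 51.2 CPM in the other STAT6-/- libraries and 32.6 to 52.1 CPM in WT). None of the 6 B cell markers was at 0. The part of B cells in the Pla2g2d values was not tested.

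Pla2g2c had 0.327 to 0.888 CPM in STAT6-/- and 0.473 to 0.567 CPM in WT (log2 fold change 0.21 ± 0.48), and Pla2g2e did not pass the filter. Of 13 other tested genes within 500 kb, 1 rose and 2 fell, a share near the 22.9% of all tested genes, with log2 fold changes from -1.16 to 1.32. Tmco4, a transmembrane protein gene, rose (57.7 ± 7.31 CPM in STAT6-/- and 23.1 ± 3.47 CPM in WT; log2 fold change 1.32 ± 0.17, edgeR adjusted p = 0.0097). Nbl1, a secreted antagonist of bone morphogenetic proteins, fell (-1.16 ± 0.31, edgeR adjusted p = 0.0381), as did Micos10, a mitochondrial crista protein (-0.91 ± 0.24, edgeR adjusted p = 0.0376).

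**Figure D3:**
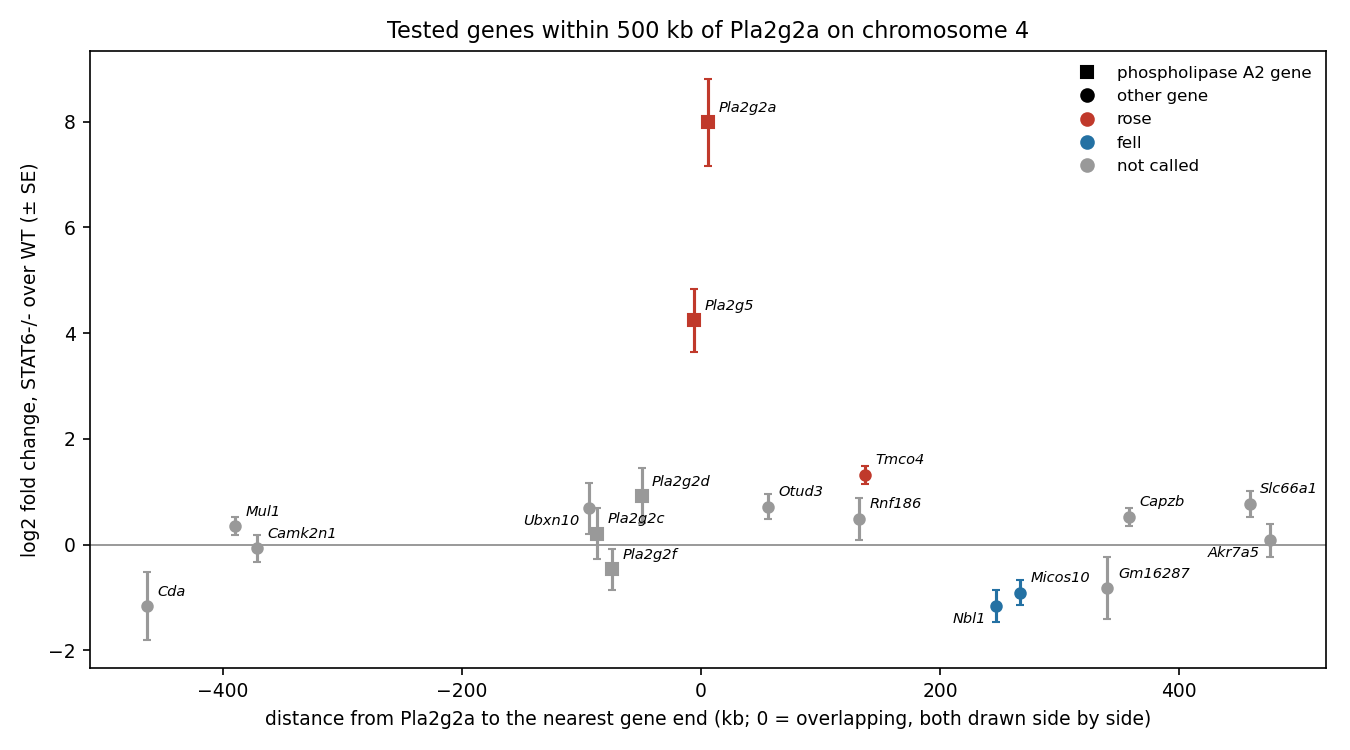
Log2 fold change of STAT6-/- over WT with SE for the 18 tested genes within 500 kb of Pla2g2a, by distance from it in kb, with squares for phospholipase A2 genes. Pla2g2a (7.99) and Pla2g5 (4.24) stand above the other genes shown, which lie between -1.16 and 1.32.

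The 5 genes closest to Pla2g2a in pattern were found by the root mean square difference of gene-centred log2 CPM over the 6 libraries, among 13059 genes compared (median 3.97). They were Ddx3y (0.90), an RNA helicase gene of the Y chromosome, Nos2 (1.06), the inducible nitric oxide synthase, Eif2s3y (1.15), a translation factor gene of the Y chromosome, Oas1g (1.17), a relative of the antiviral oligoadenylate synthetases, and Plet1 (1.27), a surface protein of epithelia. Pla2g5 ranked 17th with 1.91. The likeness rests largely on the step between the genotypes, for which Pla2g2a was chosen, and the Y-linked genes among them part the libraries by sex. Within STAT6-/-, neither Nos2 nor Plet1 was lowest in replicate 3, as Pla2g2a was. Nos2 had 806, 251 and 640 CPM in STAT6-/- and 5.26, 2.42 and 0.794 CPM in WT, with its lowest STAT6-/- value in replicate 2. Plet1 had 965, 476 and 1450 CPM in STAT6-/- and 10.5, 2.48 and 1.64 CPM in WT, highest in replicate 3, where Pla2g2a was lowest.

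**Figure D4:**
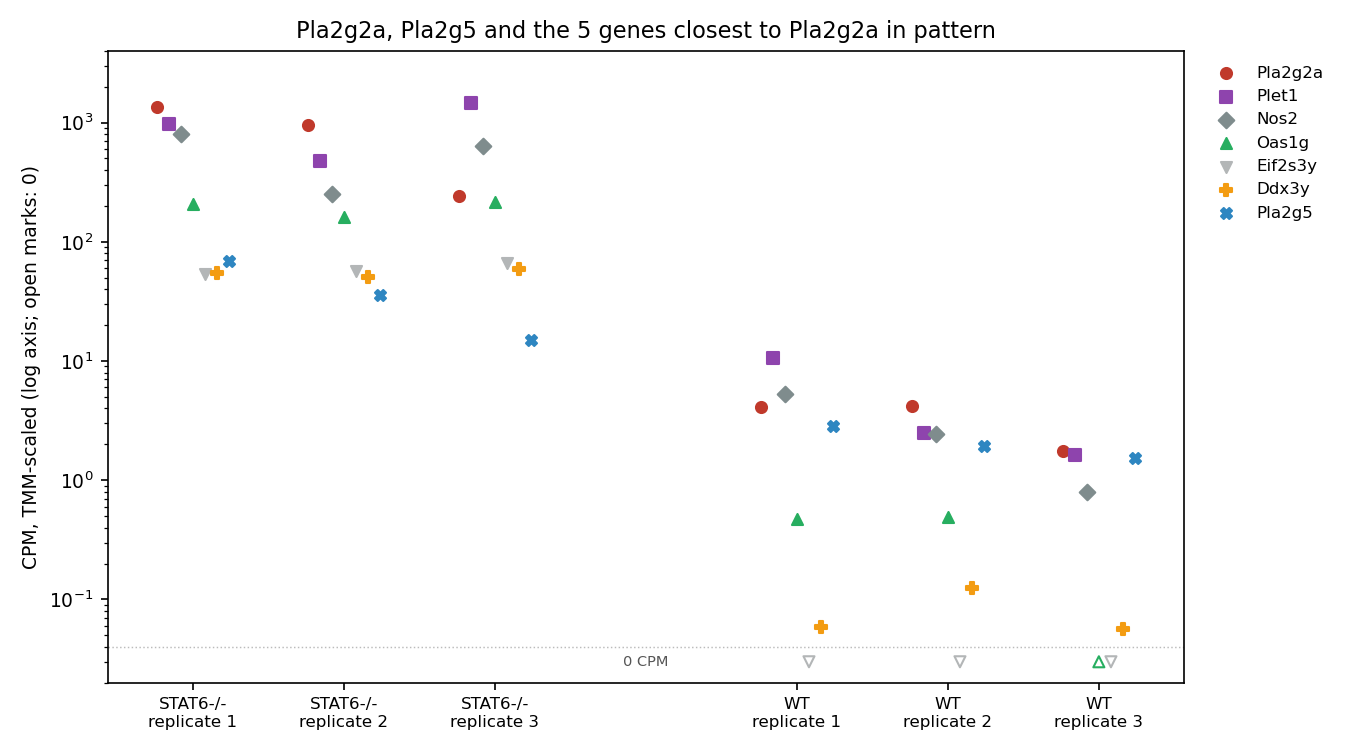
Levels of Pla2g2a, Pla2g5 and the 5 genes closest to Pla2g2a in pattern in each library (CPM, TMM-scaled, log axis), with STAT6-/- libraries left of WT libraries and open marks for 0. Among STAT6-/- libraries, Pla2g2a and Pla2g5 are both highest in replicate 1 and lowest in replicate 3, where Plet1 is highest.

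For Paneth cells, a known source of group IIA phospholipase in the small intestine, 14 markers were followed. Of these, 6 (Defa5, Defa17, Defa20, Defa21, Defa22 and Defa26) were not listed in any library and 5 more did not pass the filter. Whether the authors' transcript set held the genes that were not listed is not given in the sources used here. The summed level of all listed markers, including those below the filter, was 117, 29.5 and 65.4 CPM in STAT6-/- and 40.3, 74.9 and 90.4 CPM in WT, with overlap. Most of it was Lyz1, which averaged 69.2 ± 42.8 CPM in STAT6-/- and 66.3 ± 25.8 CPM in WT. Ang4, an antibacterial ribonuclease, had 1, 1 and 0 counts in STAT6-/- and 25, 15 and 15 counts in WT. It fell by the edgeR test (adjusted p = 0.0112). Lyz1 and Ang4 were named after their values were seen, and the part of Paneth cells in the Pla2g2a values was not tested.

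Markers of other tissue layers and of blood cells were also followed. Of the tested markers, 80.0% were called for adipocytes and 87.5% for smooth muscle, beside 22.9% of all tested genes. The shares for the other cell types here were nearer to or below that background, from 12.5% (neutrophils) to 28.6% (endothelium). Sums for fibroblasts, T cells and neutrophils overlapped between the groups. Of 7 adipocyte markers 5 were tested and 4 fell, with sums of 9.87 to 32.4 CPM in STAT6-/- and 58.7 to 398 CPM in WT. Of 8 smooth muscle markers 7 fell, with sums of 2570 to 5690 CPM in STAT6-/- and 9700 to 11900 CPM in WT, and none was at 0. Sums of 8 fibroblast markers were 961 to 3780 CPM in STAT6-/- and 2430 to 6660 CPM in WT; 2 of the 8 fell. Sums of 7 endothelial markers were 86.6 to 207 CPM in STAT6-/- and 50.2 to 84.8 CPM in WT; 2 of the 7 rose. Of 11 T cell markers 8 were tested and 2 rose, with sums of 19.1 to 114 CPM in STAT6-/- and 18.7 to 24.2 CPM in WT, and Trac, Trbc1 and Trbc2 were not listed in any library. Of 9 neutrophil markers 8 were tested and 1 rose, with sums of 493 to 1450 CPM in STAT6-/- and 284 to 772 CPM in WT. Ly6g (437 to 1310 CPM in STAT6-/- and 267 to 359 CPM in WT, not called) made up most of the sum outside WT replicate 1. In WT replicate 1 Ltf added 373 CPM, against 1.18 and 0.454 CPM in the other WT libraries. Ly6g and Ltf were named after their values were seen. The part of these cell types in the values of the members was not tested.

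Other enzymes with phospholipase A2 or PAF acetylhydrolase activity were followed in a list of 21 genes, of which 17 were tested. Of these 2 rose and 1 fell, 17.6% called, beside 22.9% of all tested genes. The higher calls came to 5 without STAT6-/- replicate 2. Over all genes, leaving out that library raised the higher calls from 1719 to 2748, which holds for each list below as well. Pla2g3, a secreted enzyme of group III, had 238, 403 and 462 counts in STAT6-/- and 102, 67 and 71 counts in WT. It rose to 18.9 ± 6.93 CPM in STAT6-/-, against 4.74 ± 1.12 CPM in WT (log2 fold change 1.99 ± 0.35, edgeR adjusted p = 0.0151), and was lowest of the STAT6-/- libraries in replicate 1, where Pla2g2a was highest.

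Pafah2, an intracellular PAF acetylhydrolase, rose to 44.7 ± 9.52 CPM in STAT6-/-, against 23.9 ± 2.8 CPM in WT (log2 fold change 0.90 ± 0.20, edgeR adjusted p = 0.0242). Pnpla8, the calcium-independent phospholipase A2 gamma of mitochondria and peroxisomes, fell to 66.2 ± 6.44 CPM in STAT6-/-, against 113 ± 9.68 CPM in WT (-0.77 ± 0.14, edgeR adjusted p = 0.0166). Pla2g4f, a cytosolic enzyme, had 65.6, 56.8 and 134 CPM in STAT6-/- and 45.2, 37.8 and 32.6 CPM in WT, without overlap. At an edgeR adjusted p of 0.0501 and a log2 fold change of 1.15 ± 0.34 it was not called, while DESeq2 called it.

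The other tested genes of this list were not called by edgeR. Pla2g2c, Pla2g2d, Pla2g15, Plaat3, Pafah1b1, Pafah1b2, Pafah1b3, Pnpla1, Pnpla2, Pnpla6 and Pnpla7 had log2 fold changes from -0.23 to 0.95, of which DESeq2 called Pnpla7 (0.95 ± 0.36) higher. The log2 fold change was -1.13 ± 0.40 for Pnpla3, without overlap, and -1.37 ± 1.72 for Pla2g4b, with overlap. Pla2g2e, Pla2g4d and Pla2g4e did not pass the filter, and Pla2g1b, the pancreatic enzyme, was not listed in any library.

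Downstream of the phospholipases, 22 enzymes of prostaglandin and leukotriene metabolism were followed, 19 of them tested. None rose by edgeR, with none at an unadjusted p under 0.05 and none by DESeq2, and 3 fell (4 by DESeq2), 15.8% called beside 22.9% of all tested genes. With STAT6-/- replicate 2 left out, 3 of these enzymes were called higher. Hpgd, which inactivates prostaglandins and was the most abundant of the list per length, fell to 82.2 ± 41.0 CPM in STAT6-/-, against 274 ± 30.5 CPM in WT (log2 fold change -1.74 ± 0.35, edgeR adjusted p = 0.0201). Akr1b3, an aldose reductase that can form prostaglandin F2 alpha, fell (-1.20 ± 0.23, edgeR adjusted p = 0.0168), and so did Ephx2, the soluble epoxide hydrolase (-1.30 ± 0.31, edgeR adjusted p = 0.0291). Ptgis, the prostacyclin synthase, was at 7.5 ± 4.4 CPM in STAT6-/- and 18.4 ± 8.56 CPM in WT, with overlap. EdgeR did not call it, and DESeq2 called it lower. Ptgs2, the inducible cyclooxygenase and named after its values were seen, was at 7.66 ± 5.22 CPM in STAT6-/- and 7.71 ± 1.11 CPM in WT (log2 fold change -0.01 ± 0.62).

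Of 18 receptors and carriers for these mediators 14 were tested, and 3 rose and 1 fell, 28.6% called beside 22.9% of all tested genes. Leaving out STAT6-/- replicate 2 raised the higher calls to 7. Leaving out WT replicate 1 left none called by edgeR, with 6 higher and 1 lower at an unadjusted p under 0.05. Over all genes that fit called 660 higher and 754 lower. Ptger1 (39.1 ± 5.27 CPM in STAT6-/- and 19.3 ± 4.05 CPM in WT, edgeR adjusted p = 0.0198) and Ptger4 (25.7 ± 9.40 CPM in STAT6-/- and 11.1 ± 1.81 CPM in WT, edgeR adjusted p = 0.0311), both receptors for prostaglandin E2, rose. Slco2a1, the carrier that takes prostaglandins into cells, rose to 160 ± 16.6 CPM in STAT6-/-, against 99.3 ± 8.04 CPM in WT (edgeR adjusted p = 0.024). Ptgfr, the receptor for prostaglandin F2 alpha, fell to 0.793 ± 0.349 CPM in STAT6-/-, against 2.76 ± 0.860 CPM in WT (edgeR adjusted p = 0.0345).

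Of 27 genes that handle lysophospholipids and acyl chains 25 were tested, and 5 rose and 5 fell, 40.0% called beside 22.9% of all tested genes. The calls were 9 higher and 6 lower without STAT6-/- replicate 2, and 3 higher and 3 lower without WT replicate 1. The reacylating enzymes Lpcat3 (log2 fold change 1.02 ± 0.18, edgeR adjusted p = 0.0147), which returns polyunsaturated acyl chains to phosphatidylcholine, Lpcat1 (0.98 ± 0.28) and Mboat7 (0.77 ± 0.15) rose, as did Acsl5 (0.82 ± 0.17), which activates fatty acids. The receptors for lysophosphatidic acid split, since Lpar5 rose (1.33 ± 0.24, edgeR adjusted p = 0.0156) while Lpar4 (-2.20 ± 0.41, edgeR adjusted p = 0.0162) and Lpar1 (-1.05 ± 0.20, edgeR adjusted p = 0.0165) fell. Enpp2 (-1.27 ± 0.32), the secreted enzyme that makes lysophosphatidic acid, Gde1 (-1.25 ± 0.36) and Lyplal1 (-1.31 ± 0.35) also fell. Lpcat1, Mboat7, Acsl5, Enpp2, Gde1 and Lyplal1 were named after their values were seen. The most abundant gene of this list per length, Mboat1, which reacylates lysophosphatidylserine, had 301 ± 125 CPM in STAT6-/- and 232 ± 21.5 CPM in WT and was not called.

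All 10 genes of a list that bind, activate or phosphorylate phospholipases A2 were tested, and edgeR called none of them, beside 22.9% of all tested genes. It called 3 of them higher without STAT6-/- replicate 2, and 1 without STAT6-/- replicate 3. DESeq2 called 2 higher, Plaa and Mknk1, and the same number was higher at an unadjusted p under 0.05 by edgeR. Plaa, the phospholipase A2 activating protein, had 65.8 ± 7.87 CPM in STAT6-/- and 48.3 ± 3.30 CPM in WT, and Mknk1, a kinase that phosphorylates the cytosolic enzyme, had 24.7 ± 4.59 CPM in STAT6-/- and 16.6 ± 0.869 CPM in WT, both without overlap. Anxa5 (-0.63 ± 0.29), Mapk14 (0.34 ± 0.17) and S100a10 (-0.14 ± 0.28), the most abundant of the list per length, overlapped between the groups.

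Together these 5 lists held 98 genes, of which 85 were tested, 10 rose and 10 fell. That is 23.5% called, beside 22.9% of all tested genes, a share near the background. The median log2 fold change was 0.21 for the other phospholipases, -0.19 for the prostaglandin and leukotriene enzymes, 0.80 for the receptors and carriers, 0.32 for the lysophospholipid genes and 0.20 for the regulators, beside 0.01 over all tested genes. DESeq2 called 19 higher. Without STAT6-/- replicate 2, 27 were called higher, and without WT replicate 1, 4. Over all genes the higher calls were 1719 in the main fit, 2712, 2748 and 660 in these 3 fits. Fewer pathway genes fell when STAT6-/- replicate 1 (5) or WT replicate 1 (6) was left out, as did fewer of all genes (751 and 754, beside 1732). EdgeR called none of the pathway genes in either direction without WT replicate 2 or without WT replicate 3. In each of these 2 cases, 7 of the lysophospholipid genes were higher and 6 lower at an unadjusted p under 0.05.

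**Figure D5:**
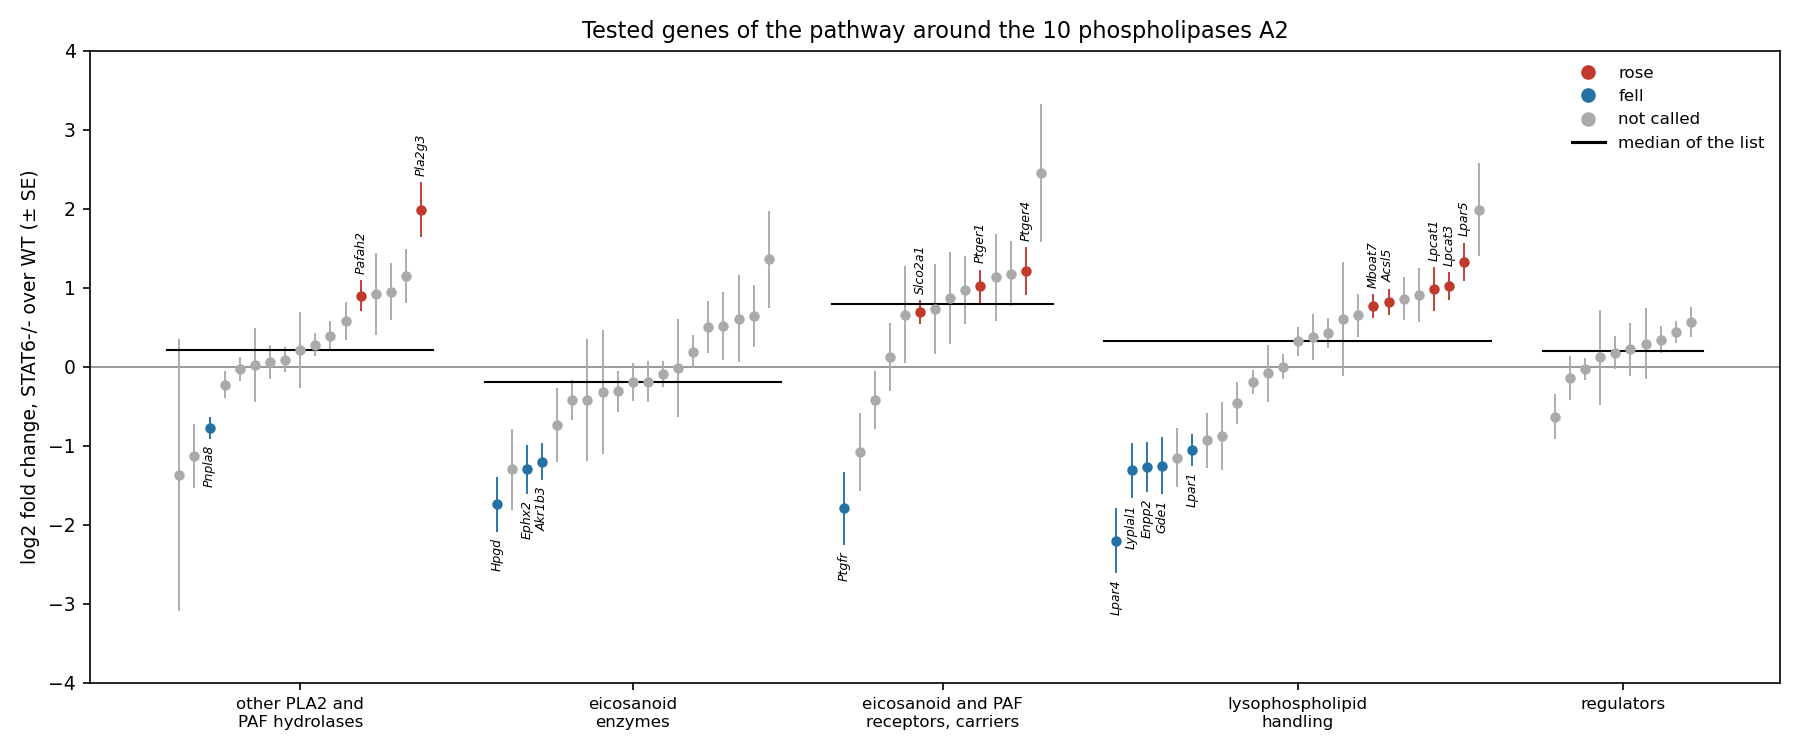
Log2 fold change of STAT6-/- over WT with SE for the 85 tested genes of the 5 pathway lists, sorted within each list, with black lines at the list medians. The 10 genes that rose and the 10 that fell are named, and the regulators include none.

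Short motifs were searched on both strands of the RefSeq promoter windows (GRCm38.p6) of the members other than Pla2g2a, 12 windows in all, and of 32851 windows of the same length genome-wide. Pla2g2a had no window in the set used, so its promoter was not searched. TTCNNNNGAA, the spacing that STAT6 prefers, was in none of these 12 windows and in 7.0% of all windows. At that share 12 windows may well hold none. TTCNNNGAA, the spacing of other STAT proteins, was in the window of Pla2g7 and in 8.3% of all. GAAANNGAAA, an interferon response element core, was in that of Pla2g6 and in 3.4% of all, and TATAAA in that of Pla2g4a and in 13.6% of all.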

How the data were processed

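Each library came with a table of expected counts, deposited by the authors, which estimate reads per RefSeq transcript and are not normalized between libraries. Its FPKM column, also deposited, divides by transcript length and depth, going by the header. The submitters' processing notes name Bowtie2 2.2.5, RSEM 1.2.12 and build mm10. The deposited tables begin at an FPKM of 0.01, and a transcript missing from one was taken as 0.

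Expected counts were summed per gene, then rounded; FPKM was summed per gene. Gene names came from a RefSeq table of GRCm38.p6 for 27981 of 28238 transcripts and from GENCODE M21 for 154, leaving 103 with 0.167% of the counts unnamed.

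Each gene was fitted in edgeR 4.0.16 under R 4.3.3 (robust quasi-likelihood F test, TMM, filterByExpr). A gene was called where its Benjamini-Hochberg adjusted p over the 15063 tested genes was below 0.05, and only called genes are said to rise or fall. The common dispersion was 0.102. SE was taken as the log2 fold change divided by the square root of F. Alternatives were RLE factors, library size alone, no filter, DESeq2 1.42.0, limma 3.58.1 on log2 of FPKM plus 1 or 0.1, a replicate block, and leaving out each library. Likeness was measured over genes with a mean of 1 or more in log2 CPM (prior count 2).

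The members and lists were chosen with earlier results of these data known. The text names all members, the other phospholipase genes, from each further pathway list the 4 of smallest p and the most abundant, genes within 500 kb of Pla2g2a, and the 5 genes most like Pla2g2a. Other names are marked as chosen after their values were seen. Calls of single B cell markers are not reported here.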

Additional observations from a re-analysis of the deposited data

How the results depend on the processing

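In the data as reported 3 members were called higher and 0 lower, as with RLE factors, library size alone, no filter, log2(FPKM + 0.1) and the replicate block. Log2(FPKM + 1) called 2 higher, and DESeq2 called 3 higher and 1 lower. With each library left out in turn, 0 to 4 members were called higher and 0 to 1 lower. The same range was 0 to 27 for pathway genes called higher (DESeq2: 19), 0 to 11 for those called lower, 12 to 2748 for all genes called higher (DESeq2: 2712) and 6 to 2439 for those called lower.

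Over 13 alternatives the log2 fold change ran from 7.50 to 8.48 for Pla2g2a, from 3.19 to 4.68 for Pla2g5 and from 1.02 to 4.45 for Pla2g4c. The calls of Pla2g2a and Pla2g5 were lost without WT replicate 2 or 3, and that of Pla2g4c without any 1 WT library and with log2(FPKM + 1). Pla2g12b ran from -0.00261 without STAT6-/- replicate 1, its one change of sign, to 0.59. The other members kept their sign in all 13. The cause of these shifts was not tested, and leaving out a library also removes a degree of freedom.

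The replicate numbers share no stated animal or day. Same-numbered libraries deviated together with correlations of 0.023, 0.045 and 0.134, and differently numbered ones with correlations from -0.109 to 0.055. The highest value was thus that of a same-numbered pair. As no pairing is stated, the libraries were not taken as pairs, and the number was used as a block only in an alternative fit. With the number as a block 3 members were called higher and 0 lower, 8 pathway genes higher and 10 lower, and 1228 genes higher and 1450 lower.

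Calls of Pla2g4c and of genes under about 1 CPM rest on few reads. With 3 libraries a group, sex parted by genotype and no colon without DSS analysed here, a difference is one between these 2 sets of libraries.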
